A study of Homo sapiens with 8 samples.

Results

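Adhesion molecules of the immunoglobulin (Ig) superfamily sit in the plasma membrane and join cells to their neighbours through Ig-like domains in their extracellular part. Of 10 such genes, 9 could be read in MDA-MB-231 cells with a hairpin against integrin α3 or a control hairpin. Among these 9, MPZL2 had by far the widest gap between the hairpins. ICAM1 was the only one of the 8 measured at the gene level that was higher with the α3 hairpin. The 10 genes were MPZL1, MPZL2, MPZL3, L1CAM, ALCAM, MCAM, ICAM1, NECTIN2 (in older annotation PVRL2), PVR and F11R. They were chosen from a list drawn up when the differences between knockdown and control on these same arrays were already known. Their gene-level and exon-level differences are therefore given as a description, and no conclusion is drawn from a test of them. Only features annotated to a single gene of the list were used. By this rule 8 of the 10 genes had a gene-level feature (of 14220 genes with 1 symbol and 22011 features in all) and 9 had exon-level features, 145 of 287329 in all. F11R was read at the exon level only, and MPZL1 had no feature of its own at either level and is not analysed here. NECTIN2 and PVR each had a further gene-level feature annotated together with another gene, which was not used.

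The cells were MDA-MB-231, an established line from a triple-negative breast tumour, mesenchymal and basal-like in character. All 4 cultures carried a stably integrated lentivirus that expressed a short hairpin RNA, either a control hairpin (2 arrays) or one directed at α3 (2 arrays), and all were grown in serum-containing medium on standard tissue culture plastic. The series description calls the arrays of a group biological replicates but does not say how the cultures were separated, so the spread given here is that between these arrays. The labels give no rescue of α3, and what α3 loss does cannot be told apart from what else the hairpin, or the choice of transduced cells, may do.

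In this family the nectins and the related poliovirus receptor PVR bind each other across cell contacts and also engage receptors on lymphocytes, the junctional adhesion molecule F11R marks tight junctions, and ICAM1 is the docking site for leukocyte β2 integrins. L1CAM, ALCAM and MCAM take part in neurite growth, leukocyte and endothelial adhesion, and are each studied in the invasion of tumour cells. MPZL2 is found in epithelia.

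The arrays were of the Affymetrix type Human Exon 1.0 ST, whose probesets lie in single exons. Each array is given as PLIER intensities per transcript cluster (gene level) and per probeset (exon level), on a linear scale. Groups were compared with limma on log2 of the intensity plus 16, calling a gene at a Benjamini-Hochberg adjusted p under 0.05, after the dimmest 40% of features had been left out (called dim or too dim to test below). Array medians ranged from 168 to 186 at the gene level and from 155 to 175 at the exon level, and both gene-level medians were lower in the knockdown. ITGA3, which encodes the α3 subunit, read 3480 and 3529 in the controls against 619 and 644 in the knockdown arrays. VIM, CD44, CAV1 and AXL, markers of this line, were bright on all 4 arrays, although AXL was lower in the knockdown (4174 ± 61.5 to 2911 ± 4.50, adjusted p = 0.00691 by limma), and PGR, ESR1 and EPCAM were at 138 or less. ERBB2, the third receptor that defines triple-negative tumours, was above the dim range, with 460.2 and 479.7 in the controls against 332 and 346 in the knockdown arrays (adjusted p = 0.0170), a call lost without knockdown replicate 1 (0.118) or 2 (0.103). CDH1, the epithelial cadherin that the line is known to lack, was dim in the controls (25.4 and 28.8) but measured 177 and 168 in the knockdown arrays. Its part in the differences below was not tested. Of 10 markers of leukocytes, endothelium, fibroblasts and myelin-forming cells, 9 had a feature. Together they summed to 1219 and 1301 in control arrays and to 1241 and 1244 in knockdown arrays. The myelin marker MBP gave the largest part of each sum (659 and 736 in the controls, 670 and 634 in the knockdown arrays). Of the 3 bright enough to test with limma, 0 passed (0 also at an unadjusted p under 0.05). Over all 13207 transcript clusters tested, 4726 had an unadjusted p under 0.05, in either direction. In bulk RNA, fewer cells that express a gene and less RNA per cell cannot be told apart.

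Over the group, knockdown arrays lay below both controls in 7 of the 8 genes with a gene-level feature and above them in 1, where 39.6% and 22.3% of all tested clusters did so. By limma at an adjusted p under 0.05, 6 of the 8 would be called lower and 1 higher, beside 15.3% and 5.99% of all tested clusters. After quantile normalization the calls over all clusters were 1354 higher and 1679 lower, and after centring 1496 and 1507, against 791 and 2016 without either. Since the genes were picked with this contrast known, nothing is read from these counts. The count of lower calls was 3 without control replicate 1 (MPZL2, MPZL3 and PVR) or 2 (MPZL2, MPZL3 and NECTIN2) and 2 without knockdown replicate 1 or 2 or without the filter on dim features (MPZL2 and MPZL3). It was 4 after quantile normalization or centring (without ALCAM and NECTIN2), 5 without the intensity trend (without ALCAM) and 4 of 6 tested with the lower 60% of features left out. At the exon level all arrays are those of the gene level summarised again. Of the 122 probesets tested, 71 had knockdown arrays below both controls and 10 above, beside 31.3% and 19.4% of all 172398 probesets tested. Limma would call 10 of them lower, 5 of which belong to MPZL2, and 7 higher, which are all of ICAM1, beside 3.25% and 1.33% of all probesets. Of the lower calls 2 were in ALCAM and 1 each in MPZL3, L1CAM and PVR. Nothing is read from the exon-level counts either, for the same reason. The probesets of a gene also come from the same arrays and are not independent.

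**Figure D1:**
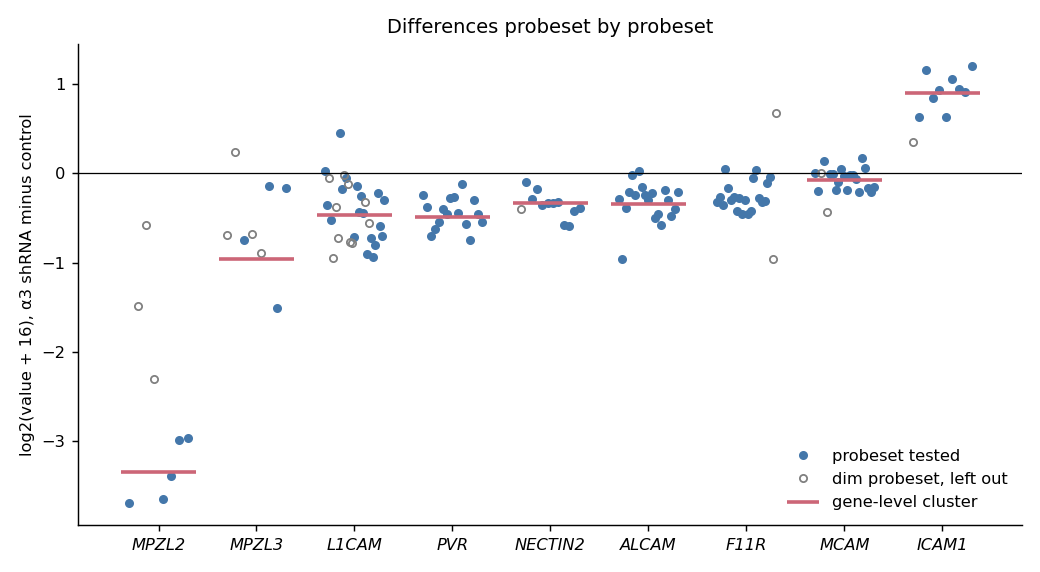
Difference between the knockdown and control means of log2(intensity + 16) for each of the 145 probesets. Filled points were tested, open points were too dim, and the red line is the gene-level value, which F11R lacks. The tested probesets of MPZL2, between -3.69 and -2.96, lie below those of every other gene, while its dim probesets reach up to -0.58. ICAM1 lies above 0 throughout.

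MPZL2, an adhesion protein of epithelia and thymus, measured 1131 and 1001 in the controls against 96.6 and 84.8 in the knockdown arrays. The groups lay far apart, with the lower control more than 10 times as bright as the higher knockdown array. The group means, 1066 ± 91.4 and 90.7 ± 8.35 (SD, n = 2 arrays each, as for every mean below), give an 11.8-fold lower intensity, or a log2 difference of -3.34 ± 0.11 (SE from the limma fit on log2 of the intensity plus 16). At the exon level, where the same arrays are summarised again, the gene also read lower in the knockdown. In 8 of its 8 probesets both knockdown arrays lay below both controls. Among those tested it was 5 of 5, beside 31.3% of all probesets tested. Since the gene was picked with this contrast known, nothing is read from these counts. The 5 bright enough to test had log2 differences from -3.69 to -2.96. Probeset 3393729, for example, read 1874 and 1795 in the controls against 128 and 136, and probeset 3393721 read 1204 and 1031 against 88.2 and 57.3. In the 3 dim probesets the control mean was 3.47, 1.95 and 6.52 times the knockdown mean, against 8.34 to 15.4 times in the 5 tested.

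**Figure D2:**
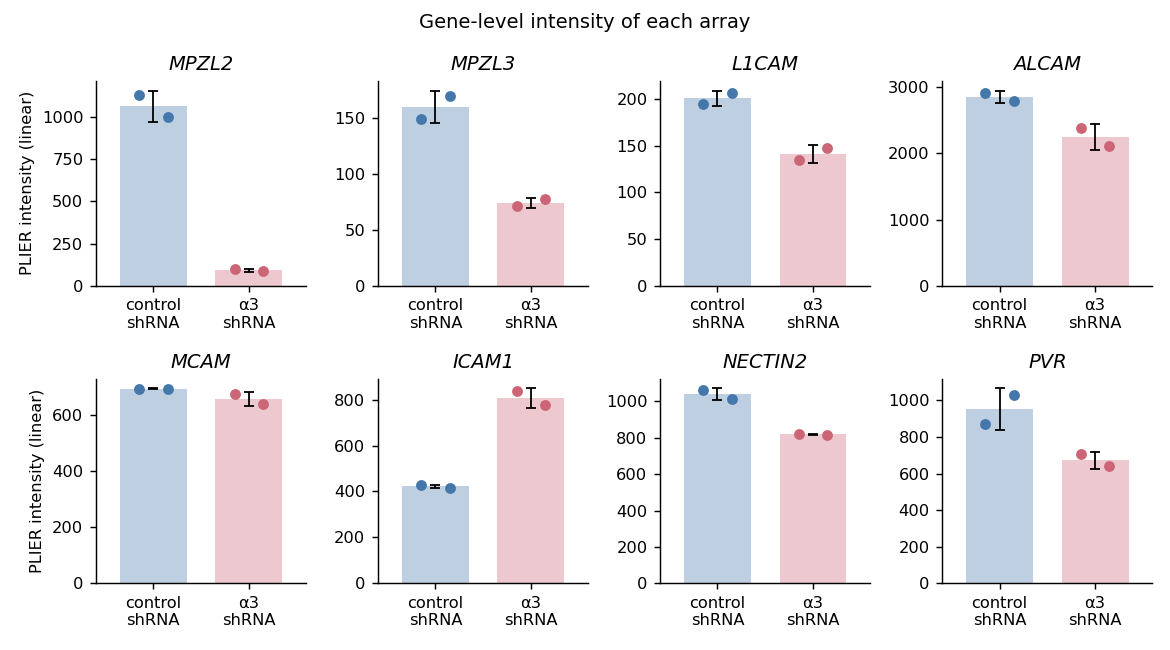
Gene-level PLIER intensity (linear axis from 0) of the 8 genes with a gene-level feature. Points are single arrays, bars the mean of the 2 arrays and whiskers the SD. MPZL2 stands at 1131 and 1001 in the controls and below 100 in both knockdown arrays, and ICAM1 is the only gene whose knockdown arrays (835 and 774) lie above its controls (428 and 417).

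MPZL3, a paralogue of MPZL2 known for its role in skin and hair, is also its nearest measured neighbour in the genome (RefSeq gene order, protein-coding genes). It measured 149 and 170 in the controls against 70.9 and 77.1 in the knockdown arrays, which do not overlap. Its mean was 2.15-fold lower (159 ± 14.5 and 74.0 ± 4.43, log2 difference -0.96 ± 0.13 (SE)). Of its 8 probesets 4 were bright enough to test, and these differed among themselves. Probeset 3393712 went from 161 and 220.0 to 66.0 and 47.1 (log2 difference -1.51), and probeset 3393708 from 399.8 and 382 to 206 and 250.04 (-0.74). Probeset 3393711 in contrast read 3859 and 2539 in the controls against 3134 and 2572 in the knockdown. These are far above the gene-level values, and whether the probeset reports MPZL3 was not tested. Its groups overlapped, with a log2 difference of -0.14. Probeset 3393718 was near that value (-0.16), with 307 and 313 against 248 and 306. The median over all 8 probesets of MPZL3 was -0.69, nearer to 0 than the gene-level value. The measured neighbours beyond the pair did not pass the test or were dim: CD3E, next to MPZL2, measured 104 ± 14.3 and 127 ± 23.8 (log2 difference 0.26, adjusted p = 0.322 by limma), and JAML, next to MPZL3, was dim on all arrays (21.7 to 29.5).

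**Figure D3:**
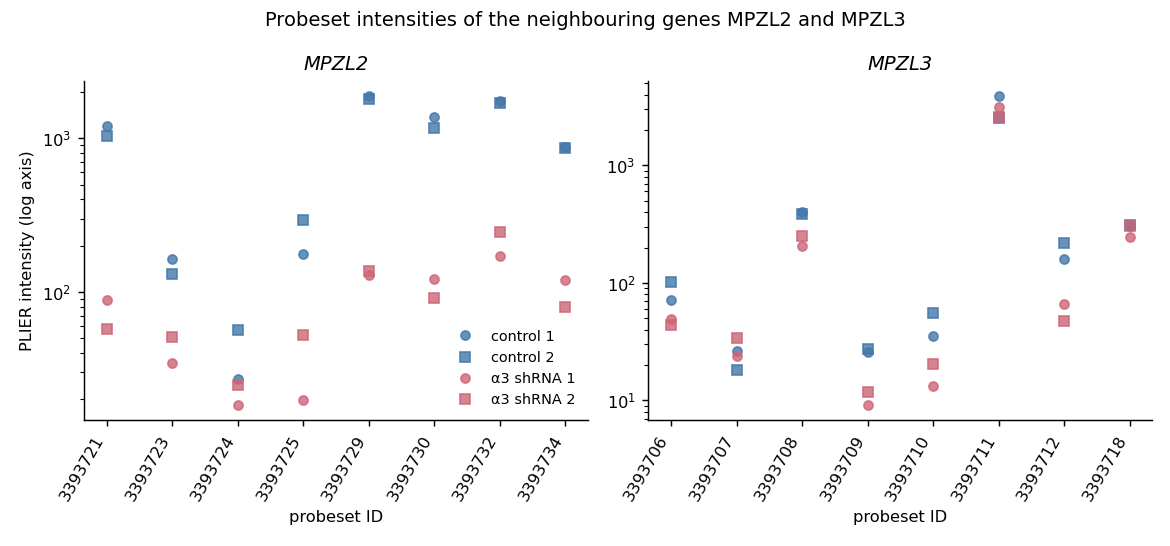
PLIER intensity (log axis) of every probeset of MPZL2 and MPZL3, in order of probeset ID, on each of the 4 arrays. All 8 MPZL2 probesets have both knockdown arrays below both controls, whereas MPZL3 probesets 3393711 and 3393718 differ little between the groups.

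In the nectin pair both genes were lower, by less than MPZL2 and MPZL3. NECTIN2, a nectin of adherens junctions that also serves as a ligand of lymphocyte receptors, measured 1062 and 1015 in the controls against 823 and 817 in the knockdown arrays. Its mean was 1.27-fold lower (1038 ± 33.0 and 820.0 ± 3.72, log2 difference -0.33 ± 0.075 (SE)), a gap several times the spread within either group. PVR, the poliovirus receptor and nectin-like molecule, measured 872 and 1032 in the controls against 706 and 640.3 in the knockdown arrays, again without overlap but with a wide spread among the controls. Its mean was 1.41-fold lower (952 ± 113 and 673 ± 46.6, -0.49 ± 0.11 (SE)). All 11 tested probesets of NECTIN2 (-0.58 to -0.10) and all 16 of PVR (-0.74 to -0.12) had negative differences. The median over all clusters tested was also below 0 (-0.06). The knockdown arrays lay below both controls in 9 of the 11 and 11 of the 16, beside 31.3% of all probesets tested. As the genes were picked with this contrast known, nothing is read from these counts. Both genes lie on chromosome 19.

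L1CAM, a neural adhesion molecule that tumours often express, measured 195 and 206 in the controls against 134 and 148 in the knockdown arrays. The groups did not overlap, and the mean was 1.42-fold lower (200.5 ± 8.17 and 141 ± 9.56, log2 difference -0.46 ± 0.11 (SE)). Its tested probesets ran from -0.94 to 0.45 around a median of -0.43. Probeset 4026830 went from 624 and 593 to 334 and 353, without overlap. Probeset 4026800 differed little, with 521 and 538 in the controls against 559.9 and 525 in the knockdown. Of its 29 probesets 10 were too dim to test, and the highest difference (probeset 4026809, with 56.7 and 165 in the controls against 129 and 154 in the knockdown) came from controls that differed from each other more than from the knockdown.

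ALCAM, a ligand of the lymphocyte receptor CD6 that also binds itself, measured 2918 and 2790.3 in the controls against 2387 and 2113 in the knockdown arrays. Its mean was 1.27-fold lower (2854 ± 90.5 and 2250.0 ± 194, log2 difference -0.34 ± 0.088 (SE)), and the arrays did not overlap. Of 19 probesets, 18 had negative differences with a median of -0.29. Probeset 2634512 stood apart from the rest, going from 694 and 614 to 349 and 307 (-0.96), where the next lowest probeset of the gene, 2634562, had -0.58.

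F11R, junctional adhesion molecule A, had 22 probesets, of which 20 were bright enough to test. Their differences ran from -0.46 to 0.05, with a median of -0.28, and 18 of the 20 were negative. Probeset 2440485 read 872 and 905 in the controls against 715 and 612 in the knockdown, and probeset 2440495 read 1872 and 1603 against 1433 and 1433. The knockdown arrays lay below both controls in 11 of the 20, beside 31.3% of all probesets tested, and overlapped them in 9. USF1, the measured neighbour of F11R on one side, fell from 618 ± 17.3 to 435 ± 4.53 (adjusted p = 0.0112, limma with Benjamini-Hochberg adjustment), a call that was lost without knockdown replicate 1 (0.0754) or 2 (0.0784), and ITLN2 on the other side was dim.

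MCAM, a melanoma-associated receptor of endothelium and pericytes, barely differed. It measured 692 and 693 in the controls against 673 and 639 in the knockdown arrays, so the knockdown arrays lay below both controls by a margin close to their own spread. The log2 difference was -0.08 ± 0.079 (SE), and it changed sign to 0.01 when each array was centred on its median. Its 19 tested probesets ran from -0.21 to 0.18 around a median of -0.03, and in 14 of them the groups overlapped. Its measured neighbours CBL (607 ± 95.4 and 601 ± 35.5, adjusted p = 0.980) and RNF26 (1303 ± 27.6 and 1127 ± 9.38, adjusted p = 0.0964) did not pass the test.

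ICAM1, the receptor for the leukocyte integrins LFA-1 and Mac-1 and a textbook target of NF-κB, went the other way. It measured 428 and 417 in the controls against 835 and 774 in the knockdown arrays. Both knockdown arrays were far above both controls, and the mean was 1.91-fold higher (422 ± 7.80 and 805 ± 43.3, log2 difference 0.90 ± 0.084 (SE)). Along the gene, knockdown arrays lay above both controls in 10 of 10 probesets. Among those tested it was 9 of 9, beside 19.4% of all probesets tested. Nothing is read from these counts, since the gene was picked with this contrast known. The differences ran from 0.63 to 1.20 over the 9 tested. Probeset 3820455 read 337 and 443 in the controls against 869 and 957 in the knockdown, and probeset 3820445, at the low end, read 1133 and 933 against 1633 and 1573.

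The promoters of ICAM1 and of the nectin pair are shown because ICAM1 was higher and the pair lower in the knockdown. Each is the 250 bases before the start of the gene from RefSeq (GRCh38.p14, all on the plus strand), at chr19:10270870-10271119 for ICAM1, chr19:44846047-44846296 for NECTIN2 and chr19:44643660-44643909 for PVR. Capitals mark matches on either strand to 4 motifs. The letters GGAAATTCC stand for an NF-κB site. A TATA box was searched as TATAAA, the core promoter element that sets the start of many inducible genes. Matches to GGGCGG were counted as GC boxes, which Sp1 is known to bind. A cAMP response element was searched as TGACGTCA. The letters were chosen with these sequences in view, and no motif overlaps another here.
ICAM1: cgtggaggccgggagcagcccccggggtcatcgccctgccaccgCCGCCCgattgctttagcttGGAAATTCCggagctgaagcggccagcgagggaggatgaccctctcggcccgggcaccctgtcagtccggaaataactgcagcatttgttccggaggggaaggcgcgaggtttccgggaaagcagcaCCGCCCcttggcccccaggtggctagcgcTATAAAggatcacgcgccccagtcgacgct
NECTIN2: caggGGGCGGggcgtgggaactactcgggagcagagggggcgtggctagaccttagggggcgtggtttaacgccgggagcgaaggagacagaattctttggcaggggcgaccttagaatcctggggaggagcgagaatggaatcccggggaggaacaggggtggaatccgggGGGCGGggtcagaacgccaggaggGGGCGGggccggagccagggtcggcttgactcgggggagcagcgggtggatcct
PVR: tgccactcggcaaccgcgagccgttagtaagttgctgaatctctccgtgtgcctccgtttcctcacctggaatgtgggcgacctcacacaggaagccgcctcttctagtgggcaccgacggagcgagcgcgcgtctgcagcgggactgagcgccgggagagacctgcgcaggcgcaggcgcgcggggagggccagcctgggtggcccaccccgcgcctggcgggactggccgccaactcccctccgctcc
ICAM1 held the NF-κB letters, starting 186 bases before the gene, a TATA box starting 30 bases before it, and 2 GC boxes. NECTIN2 held 3 GC boxes, and the PVR window held none of the 4 motifs. Among 34943 promoter windows of this length in the table, 0.415% held the NF-κB letters, 10.8% the TATA box, 42.5% the GC box and 1.63% the cAMP response element. Of the members with an entry in the table, ICAM1 alone held the NF-κB letters, and MCAM alone the cAMP response element. G and C made up 66.0%, 67.6% and 70.0% of the ICAM1, NECTIN2 and PVR windows, against a median of 58.0% over all windows. A match is a description of the letters and no evidence of binding.

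Genes known to act with ICAM1 in NF-κB and interferon signalling were read beside it. Of 8 listed, 5 were tested by limma, 0 were called higher (0 also at an unadjusted p under 0.05) and 1 was called lower (2 at an unadjusted p under 0.05), with a median log2 difference of -0.09 against -0.06 over all 13207 transcript clusters tested. Over all clusters, 5.99% were called higher and 15.3% lower, and 4726 had an unadjusted p under 0.05 in either direction. Both knockdown arrays lay below both controls in all 5 tested genes, where 39.6% of all tested clusters did so. Whether the list differs from all clusters was not tested. IRF1, an interferon-induced transcription factor, fell from 686 ± 37.2 to 499 ± 18.3 (log2 difference -0.45 ± 0.086 (SE), adjusted p = 0.0173), although the call was lost without knockdown replicate 1 (0.0748) or 2 (0.129). The NF-κB subunit RELA had a log2 difference of -0.09 (adjusted p = 0.439), NFKB1 of -0.19 (0.116), the inhibitor NFKBIA of -0.06 (0.638) and TNFAIP3 of -0.08 (0.533). VCAM1 and SELE, cytokine-induced adhesion molecules of endothelium, were dim on all arrays (16.4 to 27.9). ICAM4, the measured neighbour of ICAM1, went from 117 ± 2.84 to 155 ± 14.9 (0.36 ± 0.12 (SE), adjusted p = 0.0873), and MRPL4 on the other side from 1209 ± 52.9 to 996 ± 5.45 (-0.27, adjusted p = 0.05003). Neither passed.

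How the size of each difference varied with the processing is given as a description. MPZL2 ranged from -3.54 (offset of 1) to -2.87 (offset of 64), ICAM1 from 0.84 to 1.00, MPZL3 from -1.09 to -0.69, L1CAM from -0.53 to -0.37, PVR from -0.61 to -0.37, ALCAM from -0.43 to -0.25 and NECTIN2 from -0.37 to -0.24. The median of F11R ranged from -0.34 to -0.20.

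**Figure D4:**
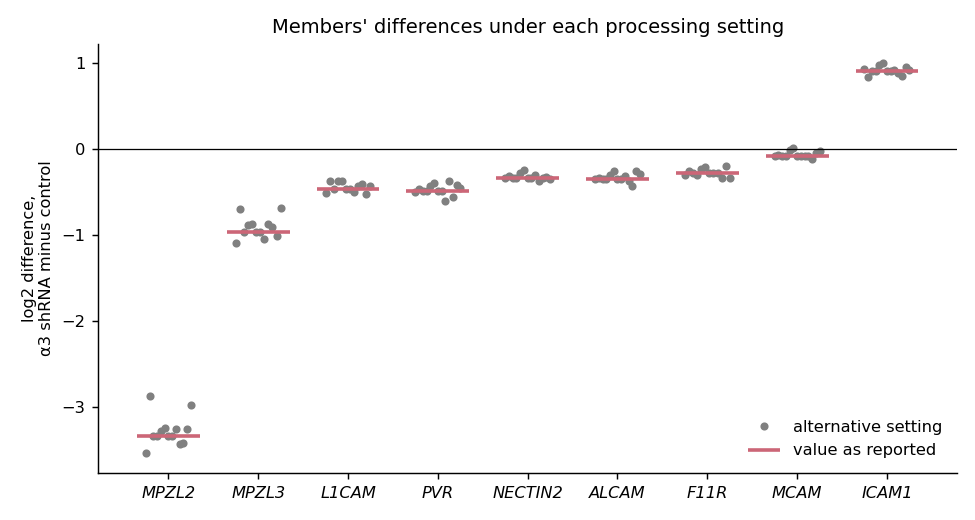
Log2 difference of each gene (for F11R, the median of its tested probesets) as reported (red line) and under each alternative setting (grey points). Only MCAM touches 0, ranging from -0.11 to 0.01, and MPZL2 stays between -3.54 and -2.87.

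Among other Ig-family adhesion molecules, CADM1 and CLMP stood out as lower in the knockdown. The list was likewise chosen with earlier results of these data known. Of 42 listed, 33 had a gene-level feature, 20 of these were tested by limma, 6 were called lower, 0 higher and 14 did not pass (7 lower and 2 higher at an unadjusted p under 0.05), beside 15.3% lower and 5.99% higher over all clusters. Of all 13207 clusters tested, 4726 had an unadjusted p under 0.05, in either direction. After quantile normalization 5 of the listed genes were lower and 3 higher (CADM4, ICAM2 and ICAM4), and after centring 5 and 3 (CADM4, ICAM4 and NPTN). The median of the 20 was -0.09, close to that of all clusters. CADM1, an epithelial and neural adhesion molecule related to the nectins, fell 4.47-fold, from 891 and 874 in the controls to 184 and 211 in the knockdown arrays (log2 difference -2.08 ± 0.099 (SE), adjusted p = 0.000274). CLMP, a tight junction molecule of the coxsackievirus receptor family, fell 2.93-fold, from 597 and 553 to 184 and 208 (-1.48 ± 0.10 (SE), adjusted p = 0.00111). Both kept their call in each setting that tested them.

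Smaller falls were called in CD58, the ligand of the T cell protein CD2 (484 ± 22.8 to 317 ± 2.85, adjusted p = 0.00866), NCAM1, the neural cell adhesion molecule (562 ± 68.6 to 376 ± 8.27, adjusted p = 0.0173), NECTIN1 (163 ± 9.93 to 105 ± 8.29, adjusted p = 0.0240) and BCAM, a laminin receptor and the measured neighbour of NECTIN2 (307 ± 16.9 to 236 ± 0.110, adjusted p = 0.0464). Without knockdown replicate 1 or 2 the calls of CD58 (0.0585 and 0.0614), NCAM1 (0.0834 and 0.0784), NECTIN1 (0.129 and 0.0812) and BCAM (0.217 and 0.239) were lost. NECTIN1 also lost its call without control replicate 2 (0.0743). BCAM lost its call in 7 of 11 settings, also without control replicate 1 (0.0550) or 2 (0.110), with no filter (0.0740), with quantile normalization (0.0749) and with centring (0.0670). TOMM40, on the other side of NECTIN2, did not differ beyond its spread (448 ± 80.1 and 439 ± 4.13, adjusted p = 0.939), and BCL3 beside PVR went from 200.3 ± 12.5 to 161 ± 6.34 without passing (adjusted p = 0.114).

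Close relatives of the members were not all called lower. NECTIN3, the partner of other nectins, measured 548 and 573 in the controls against 544 and 651 in the knockdown (log2 difference 0.08 ± 0.11 (SE), adjusted p = 0.634). CADM4, of the same family as CADM1, went the other way, with 163 and 186 in the controls against 229 and 244 in the knockdown. It did not pass (0.41 ± 0.11 (SE), adjusted p = 0.0508 by limma). It was called higher with an offset of 64, quantile normalization, centring, no intensity trend or the replicate block. ICAM2 had 0.22 ± 0.11 (SE) (adjusted p = 0.206), ICAM3 -0.33 ± 0.13 (SE) (0.135) and ICAM5 0.06 ± 0.077 (SE) (0.605). JAM2 and JAM3, relatives of F11R, and NRCAM and CHL1, relatives of L1CAM, were too dim to test. NCAM2 was left out by the filter with 88.0 and 102 in the controls against 18.9 and 21.8 in the knockdown, and it was called lower when no filter was applied.

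**Figure D5:**
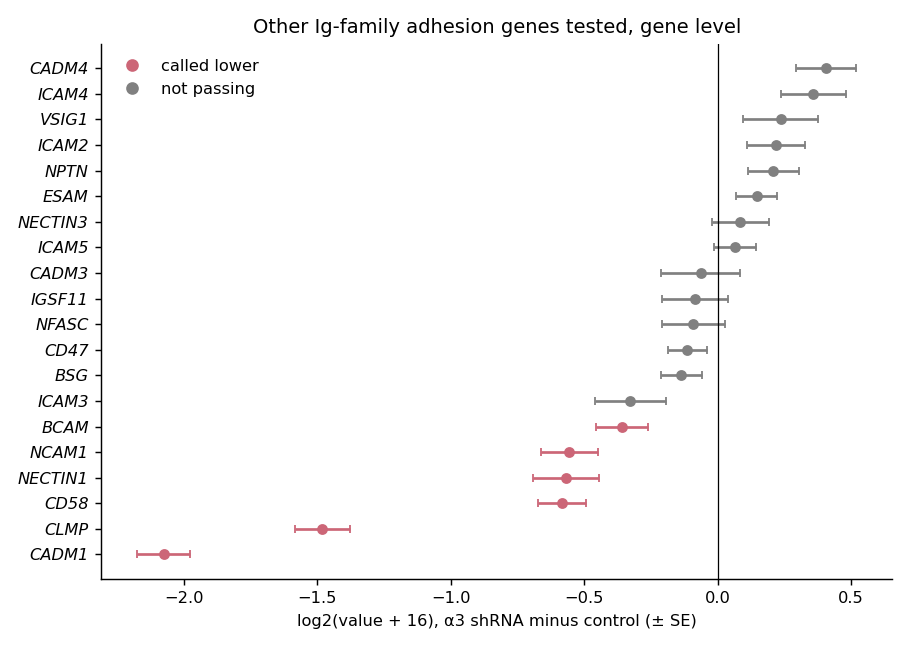
Log2 difference ± SE (limma, gene level) of the 20 tested Ig-family adhesion genes outside the list of 10. CADM1 (-2.08) and CLMP (-1.48) lie farthest from 0 among the 6 called lower, and 0 were called higher, although quantile normalization or centring each gave 3 higher calls.

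Most binding partners that the members are known for were dim in these cells. Of 15 listed, 13 had a feature and 9 of these were too dim to test. They include the lymphocyte receptors of PVR and NECTIN2, CD96 (30.1 to 46.2), CD226 (26.4 to 34.1) and TIGIT (41.3 to 67.5), the ALCAM receptor CD6 (53.3 to 71.7) and ITGAL, a subunit of the ICAM1 receptor LFA-1 (52.0 to 66.1). Of the 4 tested, 3 were called lower and 0 higher (3 and 0 also at an unadjusted p under 0.05), with a median of -0.50, beside 15.3% lower and 5.99% higher calls and a median of -0.06 over all clusters. An unadjusted p under 0.05, in either direction, was reached by 4726 of the 13207 clusters tested. With centring LGALS3 was also called higher. Neuropilin-1 (NRP1), which associates with L1CAM, fell from 1214 ± 37.2 to 659 ± 18.8 (log2 difference -0.87 ± 0.077 (SE), adjusted p = 0.00218). Galectin-1 (LGALS1), a lectin that binds cell surface glycans, fell from 6982 ± 52.2 to 4793 ± 378 (-0.54, adjusted p = 0.0102), and the β2 integrin subunit ITGB2 from 372 ± 30.6 to 266 ± 5.13 (-0.46, adjusted p = 0.0253). LGALS1 lost its call without knockdown replicate 2 (0.0575), and ITGB2 without control replicate 2 (0.0653) or knockdown replicate 1 (0.138) or 2 (0.132).

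On the cytoplasmic side, a few adaptors and proteases were called. Of 19 listed, 13 were tested by limma, 2 were called higher, 1 lower and 10 did not pass, with a median of 0.07 (3 higher and 2 lower at an unadjusted p under 0.05). These counts lie beside 5.99% higher and 15.3% lower over all clusters, with 4726 of 13207 at an unadjusted p under 0.05 in either direction. No test was made of whether this list differs from all clusters. With centring SDCBP and TJP1 were also called higher. Afadin (AFDN), the adaptor that ties nectins to actin, rose from 426 ± 37.5 to 705 ± 48.8 (log2 difference 0.71 ± 0.10 (SE), adjusted p = 0.00734). Ezrin (EZR), which links membrane proteins such as ICAM1 to actin, rose from 2391 ± 66.4 to 3122 ± 95.0 (0.38 ± 0.075 (SE), adjusted p = 0.0178). Nicastrin (NCSTN), a subunit of γ-secretase, fell from 1022 ± 95.0 to 695 ± 17.3 (-0.54, adjusted p = 0.0119). None of the 3 kept its call without knockdown replicate 2 (0.0521, 0.120 and 0.0703), and EZR also lost it without control replicate 2 (0.0507) or knockdown replicate 1 (0.0697). PTPN11, the phosphatase that binds MPZL1, measured 1112 and 1478 in the controls against 1510.2 and 1574 in the knockdown arrays. Both knockdown arrays lay above both controls, but the controls lay far apart, and the gene did not pass (0.26 ± 0.14 (SE), adjusted p = 0.223 by limma).

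The profile most like that of MPZL2 over the 4 arrays, by Euclidean distance between log2 values centred on each gene's mean, belonged to PTGFRN, a membrane partner of tetraspanins that also has Ig-like domains (distance 0.300, among 9229 genes compared). It read 1455 and 1574 in the controls against 168 and 152 in the knockdown arrays. Next came the receptor gene NEO1 (0.379), with 401 and 465 against 23.3 and 29.5, and SH3BGRL (0.503), with 547 and 575.0 against 57.7 and 63.8. With 4 arrays in 2 groups this measure reflects little more than the size of the difference between the groups.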

How the data were processed

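RNA of 4 cultures was hybridised to 4 arrays (Affymetrix Human Exon 1.0 ST), each summarised at the gene and the exon level (8 samples). The deposited values are PLIER intensity values on a linear scale, made by the authors with Affymetrix Expression Console from core probesets per the labels; the series text names the Exon Array Computational Tool. For the normalization between arrays, the genome build and tool versions, nothing is given in the sources used here. Genes were named from the platform annotation, with older symbols updated to RefSeq names (GRCh38.p14). Of 22011 transcript clusters 14432 had 1 symbol, 2408 several and 5171 none, and of 287329 probesets 261273, 9155 and 16901. Features with several symbols were named for none. A gene with several clusters is given by its brightest.

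From these values log2(intensity + 16) was computed, the lower 40% of features by mean were left out as dim, and knockdown was compared with control over all remaining features with limma 3.58.1 (lmFit, eBayes with an intensity trend, R 4.3.3) and Benjamini-Hochberg adjustment at 0.05. The fit had 2 residual degrees of freedom, so the number of arrays limits the precision. Differences are on the log2(intensity + 16) scale, which understates those of dim genes. The script was tested on simulated data. The 10 members and all lists were chosen with earlier results of these data known. Named genes are the members, up to 6 called genes of each other list by p, genes that a role or a genome neighbour needs (the nearest measured protein-coding gene on each side in RefSeq order), and the 3 profiles nearest to MPZL2. Some probesets and dim genes were named after their values were seen. Alternatives were other offsets (1 and 64), no filter or the lower 60% left out, quantile normalization, centring, no intensity trend, the replicate number as a block, leaving out each array, and exon-level medians. Promoter windows of 250 bases came from RefSeq, without entries used for MPZL2, MPZL3 and F11R.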

Additional observations from a re-analysis of the deposited data

How the results depend on the processing

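Counts of calls depended on the settings. Over all transcript clusters, higher calls (791) were 485 without the filter, 1354 after quantile normalization, 1496 after centring, 1324 with the replicate block and 166 to 909 when 1 array was left out. Lower calls (2016) were 632 to 1906 when 1 array was left out. Of the members, 2 were called lower without the filter and 2 to 3 with 1 array left out, against 6. Other Ig-family genes called higher (0) were 1 with an offset of 64, 3 after quantile normalization and 3 after centring. Without the trend 1 was called higher, and with the replicate block 1. Those called lower (6) were 4 with the lower 60% left out, 5 after quantile normalization or centring and 7 with the replicate block. With 1 array left out fewer than 6 were called lower. Partners called lower (3) were 1 to 3 with 1 array left out, and 1 was called higher after centring. Of the adaptors, 2 were called lower with the lower 60% left out and 2 with the replicate block, against 1, and 0 to 1 with 1 array left out; higher calls (2) were 4 after centring and 0 to 2 with 1 array left out. In the NF-κB list lower calls (1) were 0 to 1. Over all probesets, lower calls (5605) were 120 without the filter, 1314 without the trend, 18204 with the replicate block and 2162 to 3259 with 1 array left out; higher calls (2293) were 43, 379, 10755 and 754 to 2110, and 3508 after centring. Of the members' probesets, 3, 6, 29 and 5 to 8 were called lower, against 10, and 0 were called higher without the filter and 0 without the trend, against 7, or 2 to 6 with 1 array left out. MCAM turned to 0.01 after centring. The cause of these changes was not tested. Arrays with the same number deviated together (correlation 0.290 in either of the 2 pairs, which mirror each other), and nothing in the labels ties them, so the number was not taken as a pairing. Where 1 array was left out, the lone array was assumed to vary like the other group. The mean over several clusters of a gene was not run, since each member had 1.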
